A study of Mus musculus with 4 samples.

Results

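The 26S proteasome of mouse T cells is described here gene by gene, from the RNA of its subunits, its immune variants, its activators and the chaperones that build it. Members were the protein-coding genes whose mouse symbol begins with Psma, Psmb, Psmc, Psmd, Psme, Psmf or Psmg and a digit, which gave 50 of the 21764 protein-coding genes counted. Of these, 48 encode subunits, activators, an inhibitor or assembly chaperones. The other two were taken in by their symbols: Psmc3ip, a partner of the meiotic recombinases, and Psme2b, a close copy of the activator gene Psme2. The data are 4 RNA-seq libraries of primary T cells from C57BL/6NJ mice, labelled as biological replicates 1 to 4 of 1 group, so no treatment or genotype was compared and the tests are within libraries or of the spread between them. The file headers name the cells as activated Th0 cells, which are helper T cells stimulated without polarising cytokines, at 16 h, and the labels link a protocol for differentiating CD4+ T cells. The assay is called total RNA-seq while the linked library protocol is named for polyA+ RNA, which was not settled. The labels give all 4 biosamples 1 donor identifier, an unknown age and a sex that was not collected. They do not say whether the cells came from separate animals. Every p-value below therefore takes these libraries as its units and speaks for these libraries only. A part of the spread between them may be technical. Sex-linked transcripts, given below, show that replicates 1 and 2 did not hold cells of the same sex as replicates 3 and 4.

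The proteasome degrades proteins that carry chains of ubiquitin. Its 20S core is a barrel with outer rings of alpha subunits and inner rings of beta subunits, and only Psmb5, Psmb6 and Psmb7 cut peptide bonds. In immune cells and under interferon gamma, Psmb8, Psmb9 and Psmb10 can take their places in newly built cores, giving the immunoproteasome, whose peptides fit MHC class I molecules more often. The 19S cap, with a base of ATPases and a lid, binds ubiquitin chains, removes them and threads the substrate into the core, and the Psme activators can sit on the core in its place. Activated T cells divide rapidly and turn over many proteins, and proteasome activity is needed for their proliferation.

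The libraries held 46192242 to 63313389 counted read pairs. Levels below are in TPM, the deposited count of a gene over its deposited exonic length, scaled so that every library has the same total; CPM are counts scaled in that way without a length. The deposited length covers every exon of a gene in GENCODE M13. Over the 50 members it was a median of 1.55 times the length of the gene's principal transcript in GENCODE M21 (range 0.324, for Psma2, to 3.36). The ratio is below 1 where the M21 transcript is the longer. Over detected protein-coding genes the median was 1.29 times. Means by principal transcript length are therefore given beside the main levels for many genes, and an order named without them may also change. The T cell markers Cd3d, Cd3e, Cd3g, Trac, Cd4, Cd5 and Lck were at 1 TPM or more in all 4 libraries and summed to 5130 to 5300 TPM; Cd8b1 averaged 57.5 ± 3.71 TPM (SD, n = 4) and Cd8a 0.776 ± 0.380 TPM. No B cell marker reached 1 TPM in all libraries (0 of 4 genes; summed level 8.75, 5.91, 6.18 and 2.07 TPM in replicates 1 to 4), and of the macrophage and dendritic cell markers 1 of 5 did, H2-Aa, with a summed level of 4.40, 2.84, 2.94 and 2.14 TPM. NK cell markers summed to at most 0.704 TPM. The libraries also split by sex-linked genes: Xist stood at 141, 116, 0.269 and 0.303 TPM in replicates 1 to 4, and the Y-linked Eif2s3y at 0.0149, 0.179, 49.2 and 46.5 TPM, with Kdm5d, Uty and Ddx3y split the same way as Eif2s3y.

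Proteasome transcripts were among the abundant messages of these cells. At 1 TPM or more in every library were 48 of the 50 members, against 45.2% of all protein-coding genes. At 100 TPM or more in every library were 37 members, and the share of all protein-coding genes at that level was not computed. The median of the detected members' mean levels was 228 TPM, against 32.8 TPM for detected protein-coding genes, and 45 members lay above that protein-coding median. The 50 genes took 0.953%, 0.947%, 0.928% and 0.875% of all counts in replicates 1 to 4, with 95% Wilson intervals of 0.950 to 0.956, 0.944 to 0.949, 0.926 to 0.931 and 0.872 to 0.878, which cover counting error only. None of these intervals overlapped another, and the share was lowest in replicate 4. The members lie on 16 chromosomes, and only the pair Psmb8 and Psmb9 is known for sitting inside the MHC class II region.

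**Figure D1:**
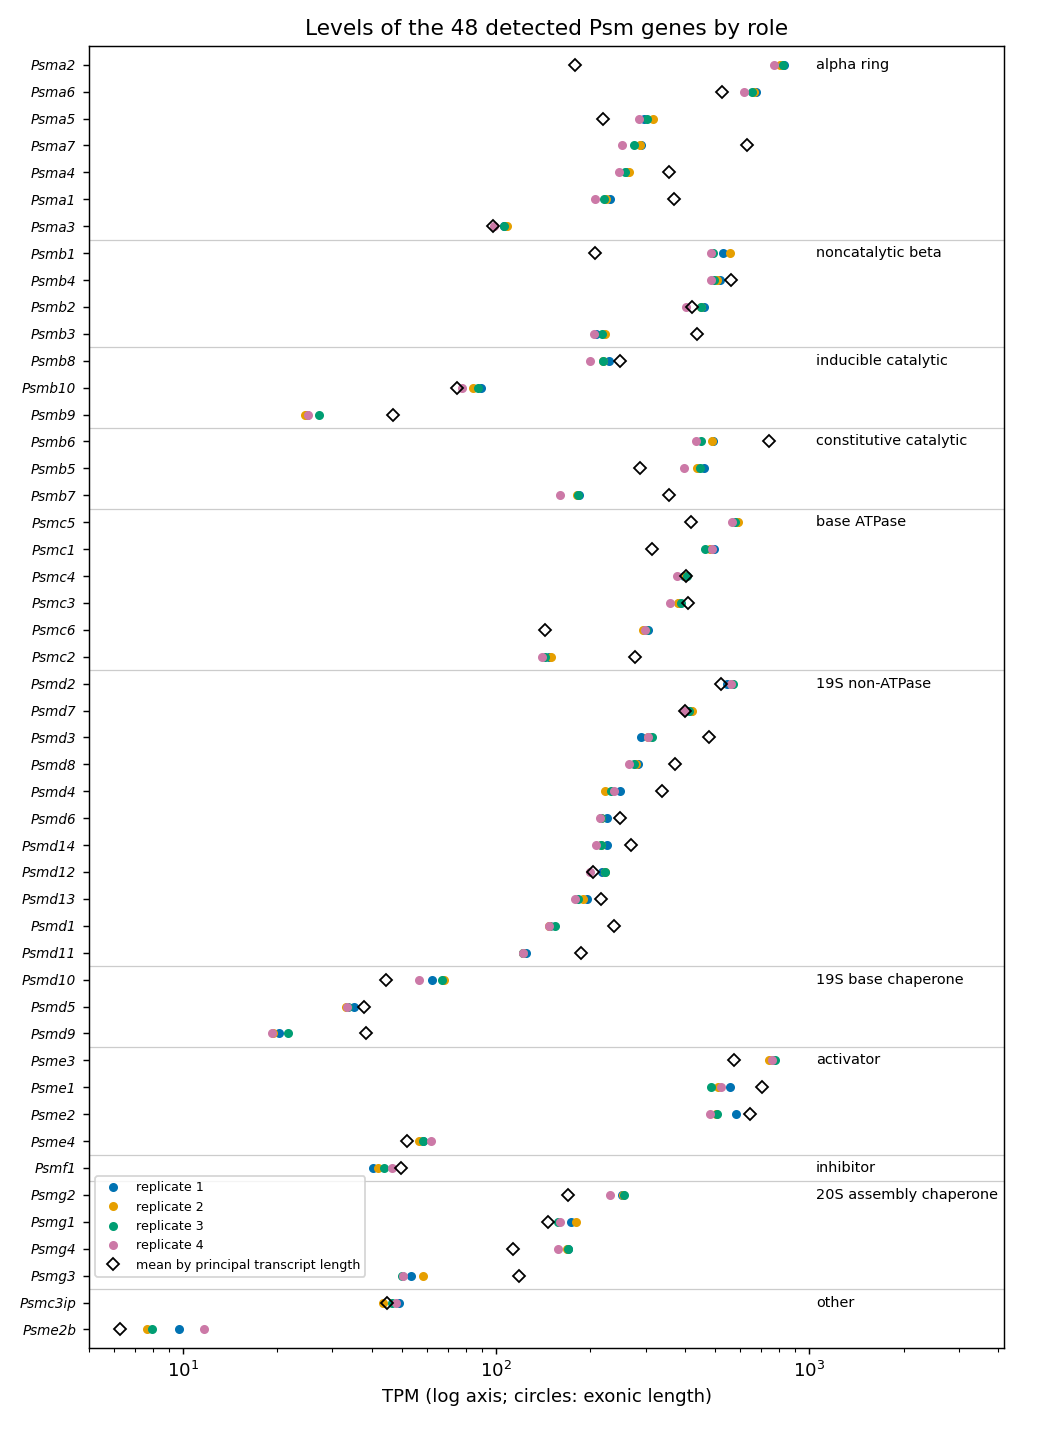
Level of each of the 48 detected genes in TPM on a log axis, grouped by role, with 1 circle per library (exonic length) and a diamond for the mean by principal transcript length. The 31 detected core and cap subunits other than the inducible ones average between 104 TPM (Psma3) and 808 TPM (Psma2), while Psme2b (9.26 TPM), the base chaperone Psmd9 (20.1 TPM) and Psmb9 (25.4 TPM) lie lowest, and circles of 1 gene lie closer together than its circles and its diamond in many rows.

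All 3 inducible catalytic subunits were transcribed, each below its constitutive counterpart by TPM. Psmb8 (ENSMUSG00000024338.14, chr17:34197721-34201454, plus strand), which replaces Psmb5, stood at 229, 219, 219 and 199.7 TPM in replicates 1 to 4, against 462, 437, 446 and 397 TPM for Psmb5 (ENSMUSG00000022193.6, chr14:54614120-54617995, minus strand), the chymotrypsin-like subunit. The ranges did not overlap, and the log2 ratio was -1.01 ± 0.016 (SD, n = 4), a 0.498-fold level, with Psmb8 lower in 4 of 4 libraries. Dividing by the principal transcript brought the pair close together, at 248 ± 13.6 TPM for Psmb8 and 287 ± 17.8 TPM for Psmb5 (log2 ratio -0.21 ± 0.016), and the raw counts, with no length, put Psmb8 above Psmb5, with 1.54 to 1.58 counts per Psmb5 count (log2 ratio 0.65 ± 0.016). The direction of this pair therefore depends on the lengths used. Psmb5 is itself uncertain: 57.1% of the 50-base windows of its principal transcript occur in another annotated gene (Gm3375, Mir686 or Psmb5-ps), and reads that fit several places or several genes may not have been counted. The count of Gm3375 was 31, 33, 28 and 31, and that of Mir686, which overlaps 12.5% of the exonic bases of Psmb5 on the same strand, was 0 in all 4 libraries.

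Psmb9 was the scarcest of the 3, far below Psmb6 on every scale. Psmb9 (ENSMUSG00000096727.2, chr17:34181988-34187764, minus strand) had 24.8, 24.6, 27.2 and 25.1 TPM in replicates 1 to 4, against 492, 488, 452 and 435 TPM for Psmb6 (ENSMUSG00000018286.6, chr11:70525367-70527858, plus strand), the caspase-like subunit that it replaces. The log2 ratio was -4.20 ± 0.14 (SD, n = 4), a 0.0545-fold level, and was -3.99 with principal transcript lengths and -3.23 with raw counts. By library the log2 ratio was -4.31, -4.31, -4.05 and -4.11, so the libraries high in Xist (replicates 1 and 2) had lower ratios than those low in it (replicates 3 and 4), and the part of that split was not tested. Psmb9 shares 5.79% of its exonic bases with Tap1 on the opposite strand, and per the file headers the counting used strand.

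Psmb10, the inducible partner of the trypsin-like subunit Psmb7, lay between Psmb8 and Psmb9 in level. It stood at 89.6, 84.4, 87.4 and 77.9 TPM (ENSMUSG00000031897.9, chr8:105935735-105938444, minus strand), against 184, 181, 182 and 160.4 TPM for Psmb7 (ENSMUSG00000026750.6, chr2:38588036-38644087, minus strand). The log2 ratio was -1.06 ± 0.030 (SD, n = 4), a 0.479-fold level, and the 2 genes moved further apart by principal transcript length, at 75.1 ± 4.37 TPM and 356 ± 21.7 TPM (log2 ratio -2.24 ± 0.030). Added up, the inducible genes gave 343, 328, 334 and 303 TPM and the constitutive genes 1137, 1106, 1080.2 and 992 TPM, so the inducible share of catalytic transcripts was 23.2%, 22.9%, 23.6% and 23.4% (21.1% ± 0.391 by principal transcript length; SD, n = 4). The summed log2 ratio was -1.72 ± 0.025, or 0.303-fold, by exonic length. It was -1.91 ± 0.034 (0.267-fold) with principal transcript lengths and -1.16 ± 0.0295 (0.447-fold) with raw counts, so it depends on the lengths used. The share by exonic length had an SD of 0.311 percentage points over 4 libraries, which does not cover the choice of length.

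Each of these ratios, and the differences between the pairs, was tested with an exact two-sided sign-flip permutation test over the 4 libraries. In all 9 tests of the family the 4 libraries lay on 1 side, and p was 0.125 before and after Benjamini-Hochberg adjustment, which is the smallest that 4 libraries can give, so the design cannot reach a p of 0.05. The pair of Psmb9 and Psmb6 differed from that of Psmb8 and Psmb5 by -3.19 ± 0.14 log2 units and the pair of Psmb10 and Psmb7 stood 3.13 ± 0.13 above that of Psmb9 and Psmb6, both larger than their spread on every length scale. The pairs Psmb10 over Psmb7 and Psmb8 over Psmb5 differed by only -0.06 ± 0.037 with exonic lengths. They differed by -2.03 with principal transcript lengths and by -2.71 with raw counts. With 200 bases taken off each exonic length the difference was 0.30, in the other direction. By exonic length the order of the catalytic genes was Psmb6, Psmb5, Psmb8, Psmb7, Psmb10 and Psmb9, in which only the neighbours Psmb6 and Psmb5 overlapped in range. By principal transcript length Psmb7 (mean 356 TPM) stood above Psmb5 (287 TPM) and Psmb8 (248 TPM), with Psmb6 still the highest and Psmb9 the lowest.

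**Figure D2:**
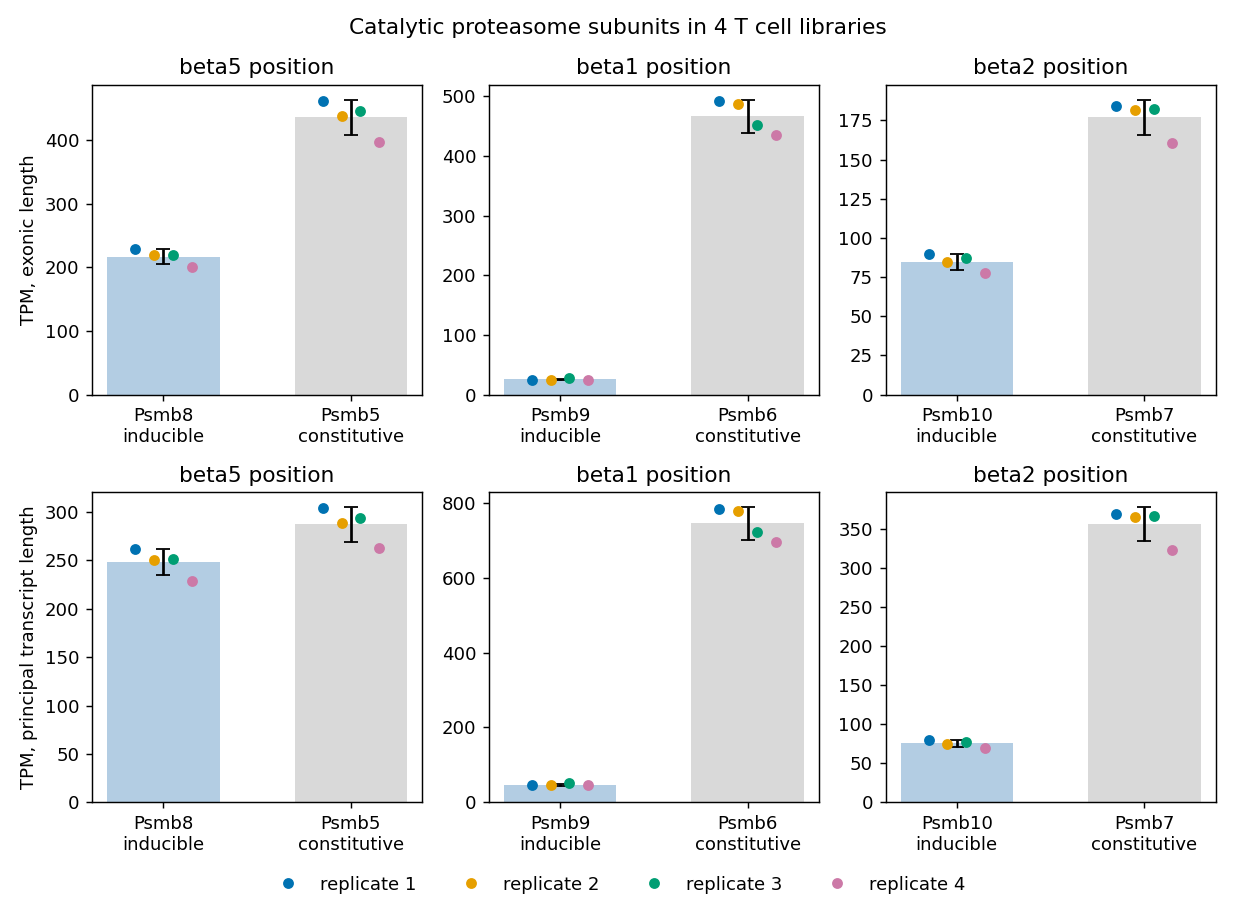
TPM of the 3 inducible catalytic subunits and of the constitutive subunit each replaces, by exonic length (upper row) and by principal transcript length (lower row), with bars for means, error bars for SD (n = 4), 1 point per library and axes that start at 0. In the upper row Psmb8 averages 217 TPM against 435 TPM for Psmb5, Psmb9 25.4 TPM against 466 TPM for Psmb6, and Psmb10 84.8 TPM against 177 TPM for Psmb7, with no overlap within a pair; in the lower row the highest Psmb8 library (261.7 TPM) nearly meets the lowest Psmb5 library (262.4 TPM).

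**Figure D3:**
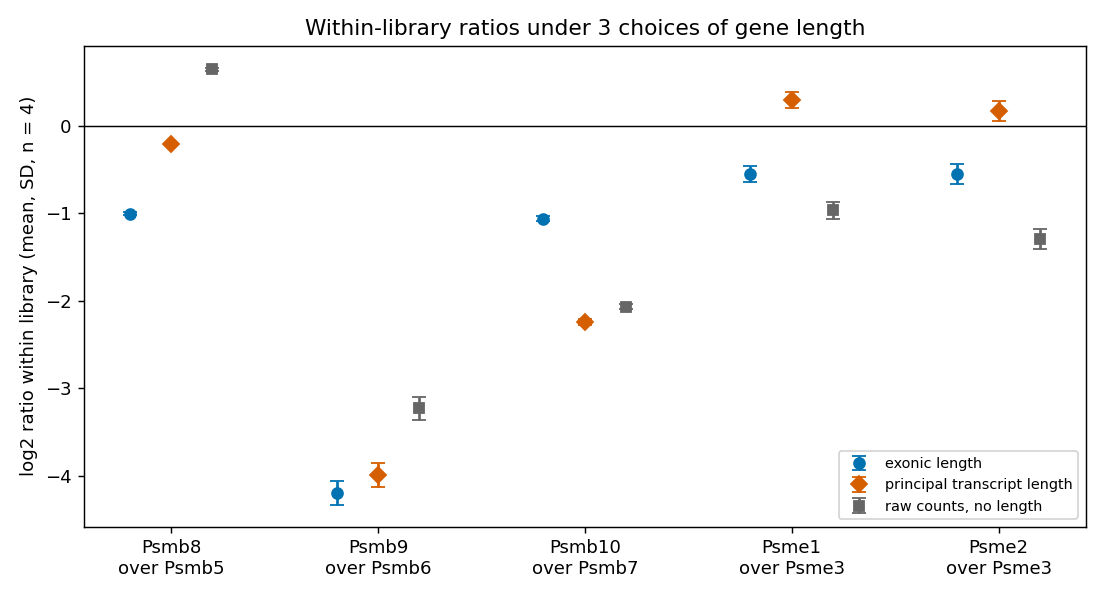
Mean log2 ratio within a library, with SD over 4 libraries, of each inducible catalytic subunit over its constitutive counterpart and of Psme1 and Psme2 over Psme3, by exonic length (circles), principal transcript length (diamonds) and raw counts (squares); the line marks equal levels. Psmb9 over Psmb6 and Psmb10 over Psmb7 stay below the line on all 3 scales, while Psmb8 over Psmb5 runs between -1.01 and 0.65 and the activator ratios cross the line with principal transcript length.

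The subunits of a pair share little uninterrupted coding sequence, so the counting could tell them apart: the longest run in common was 18 bases for Psmb8 and Psmb5, 11 bases for Psmb9 and Psmb6, and 15 bases for Psmb10 and Psmb7, in coding sequences of 828 and 792, 657 and 714, and 819 and 831 bases. The stretches around those runs are shown because they hold the longest exact match between the coding sequences of each pair. Similarity with mismatches allowed was not measured. They are from the GENCODE M21 principal transcripts (build mm10), written 5′ to 3′ on the coding strand, with the longest shared run in capitals and 15 bases on either side. Coding bases 498 to 545 of Psmb8 and 459 to 506 of Psmb5, 163 to 203 of Psmb9 and 202 to 242 of Psmb6, and 103 to 147 of Psmb10 and 115 to 159 of Psmb7 read as follows.
Psmb8: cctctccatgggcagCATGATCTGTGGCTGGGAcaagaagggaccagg
Psmb5: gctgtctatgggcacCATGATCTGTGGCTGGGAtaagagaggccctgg
Psmb9: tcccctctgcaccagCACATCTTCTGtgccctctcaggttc
Psmb6: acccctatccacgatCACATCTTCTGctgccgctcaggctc
Psmb10: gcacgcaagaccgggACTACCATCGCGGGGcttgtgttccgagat
Psmb7: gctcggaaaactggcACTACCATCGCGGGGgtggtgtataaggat

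Members known from other tissues were the ones not found. Psmb11 (ENSMUSG00000072423.4, chr14:54625310-54629556, plus strand), the catalytic subunit of the thymoproteasome of cortical thymic epithelium, had 0 counts in all 4 libraries, which allows a level of up to 0.0438, 0.0478, 0.0375 and 0.0526 TPM, at 3 counts per library. Of the thymic epithelial markers, Foxn1, Krt5 and Krt8 were also at 0 counts, Epcam averaged 1.20 ± 0.350 TPM and Prss16 1.89 ± 0.171 TPM (SD, n = 4). Psma8 (ENSMUSG00000036743.3, chr18:14706151-14762299, plus strand), the alpha subunit of testis proteasomes that replaces Psma7, had 2, 0, 0 and 0 counts, under the level that a count of 0 allows (0.0940 to 0.132 TPM). The germ cell markers Ddx4, Sycp3 and Dazl summed to at most 0.202 TPM.

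The alpha ring gates the core, and each ring holds 1 copy of Psma1 to Psma7, yet their transcripts were uneven. Psma2 was the highest by exonic length, at 829.7, 809, 826 and 769 TPM in replicates 1 to 4, and Psma3 the lowest, at 106, 108, 106 and 98.4 TPM, 7.74-fold apart with no overlap. Psma6 averaged 654 ± 25.2 TPM (SD, n = 4), Psma5 301 ± 12.9 TPM, Psma7 277 ± 17.1 TPM, Psma4 258 ± 7.82 TPM and Psma1 221 ± 10.1 TPM. The rank of the top genes depends on length: by principal transcript Psma7 was the highest at 633 ± 38.0 TPM and Psma2 came to 179 ± 5.78 TPM, while Psma3 was the lowest on both scales (97.4 ± 3.78 TPM), 6.50-fold below Psma7. In CPM, with no length, the range was 2.13-fold, with Psma7 the highest and Psma5 the lowest. Psma5 is uncertain, since 55.4% of its 50-base windows occur in other annotated genes.

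Among the beta subunits without an active site, Psmb1 had the highest mean by exonic length, at 530.2, 556, 493 and 486 TPM, with a range that overlapped that of Psmb4 (518, 508, 496 and 484 TPM), and Psmb3 the lowest at 209, 222, 218 and 206 TPM. Psmb2 averaged 442 ± 26.0 TPM (SD, n = 4). By principal transcript the order turned: Psmb4 was the highest at 563 ± 15.4 TPM and Psmb1 the lowest at 207 ± 13.1 TPM. Psmb3 shares 55.8% of its windows with other genes, so its level is also uncertain.

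The 6 ATPases of the 19S base, which unfold the substrate, ranged over 4.00-fold. Psmc5 was the highest, at 588, 591, 578 and 567 TPM in replicates 1 to 4 (419 ± 7.21 TPM by principal transcript, again the highest). Psmc2 was the lowest by exonic length at 148, 149, 143 and 140.0 TPM, whereas by principal transcript it was Psmc6, at 143 ± 2.27 TPM. By exonic length Psmc1 (483 ± 13.1 TPM), Psmc4 (396 ± 12.3 TPM), Psmc3 (378 ± 13.1 TPM) and Psmc6 (299 ± 5.08 TPM, SD, n = 4) lay between Psmc5 and Psmc2. By principal transcript Psmc3 (410 TPM) and Psmc4 (405 TPM) stood above Psmc1 (314 TPM). In CPM, with no length, Psmc3 was the highest and Psmc6 the lowest, 2.10-fold apart.

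In the rest of the 19S cap, Psmd2, the large base scaffold to which ubiquitin-like proteins dock, was the highest on both length scales, at 546, 568, 569 and 563 TPM in replicates 1 to 4. Psmd11, a lid subunit, was the lowest on both, at 124, 122, 122 and 121 TPM, 4.58-fold below Psmd2 (2.79-fold by principal transcript). In CPM, with no length, Psmd6 was the lowest, 4.47-fold below Psmd2. The ubiquitin receptor Psmd4 averaged 236 ± 10.9 TPM (SD, n = 4), the deubiquitinase Psmd14 216 ± 6.90 TPM and its partner in the lid Psmd7 412 ± 10.6 TPM. Psmd1, the other large scaffold of the base, averaged 149 ± 2.93 TPM. The remaining subunits Psmd3, Psmd6, Psmd8, Psmd12 and Psmd13 had means between 186 TPM (Psmd13) and 303 TPM (Psmd3).

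One 26S particle needs its constitutive subunits in equal numbers, and their transcripts were not equal. Over the 31 detected core and cap subunits without the inducible ones, levels ran from 104 TPM (Psma3) to 808 TPM (Psma2), with a coefficient of variation between genes of 50.3%. The coefficient was 42.6% by principal transcript length, where the range was 7.65-fold, and 47.2% for CPM, which uses no length, where it was 5.97-fold. The coefficient over these 31 genes was thus similar on all 3 scales, while the SD of their log2 levels was 0.744, 0.658 and 0.548. Within groups the coefficients, by exonic length, principal transcript and CPM, were 68.2%, 56.5% and 28.5% for the alpha ring. They were 39.5%, 32.8% and 22.6% for the base ATPases and 47.9%, 36.3% and 55.4% for the rest of the cap. For Psmb1 to Psmb7 they were 35.3%, 41.6% and 34.5%. Of all members, the one nearest in level to Psmb8 was the deubiquitinase Psmd14 by exonic length (log2 difference -0.0023) and Psmd6 by principal transcript (0.0056); the one nearest to Psmb10 was Psma3 on both scales (0.30 and 0.38). Psmb9 had Psmd9 as its nearest member by exonic length (-0.34) and Psmc3ip by principal transcript (-0.07), so no other detected core or cap subunit was as low as Psmb9.

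The activators of the core were abundant too. Psme3, whose product forms a nuclear ring that activates the core without ATP, stood at 765, 744, 778 and 757 TPM in replicates 1 to 4 and had the smallest SD of log2 CPM of the 48 members tested, 0.032. Psme1 and Psme2 encode the subunits of an interferon-inducible activator ring. Psme1 stood at 559.8, 512, 486 and 522 TPM and Psme2 at 583, 502, 506 and 483 TPM. Both were below Psme3 by exonic length in 4 of 4 libraries, with log2 ratios of -0.55 ± 0.094 (Psme1) and -0.56 ± 0.11 (Psme2; SD, n = 4), or 0.683-fold and 0.680-fold. By principal transcript both ratios turned round, to 0.29 and 0.17, with 704 ± 40.8 TPM for Psme1, 648 ± 53.9 TPM for Psme2 and 574 ± 10.6 TPM for Psme3. Psme4, a large activator that caps the core as a single chain, was scarcer at 58.4, 56.5, 58.5 and 61.9 TPM, and Psmf1, named for inhibiting the core in the test tube, stood at 40.3, 42.0, 43.7 and 46.3 TPM.

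Psme2 has a copy elsewhere in the genome that can take or lose its reads. Psme2b (ENSMUSG00000078153.3, chr11:48945354-48946190, minus strand) shares a run of 311 of 717 coding bases with Psme2, and 59.3% of the 50-base windows of Psme2 and 69.3% of those of Psme2b occur in another annotated gene. Psme2b had 131, 95, 126 and 131 counts, or 9.71, 7.67, 7.98 and 11.7 TPM, against 16576, 13096, 16839 and 11450 counts for Psme2. Both levels are uncertain for this reason. Over all members, 26 had at least 1 such window and 24 had none, among them Psmb10, and the share over all genes was not computed. The windows include neighbours on the opposite strand, and per the file headers the counting used strand. Such neighbours were Nek6 for Psmb7 (28.1% of windows), Tap1 for Psmb9 (12.5%) and Gm20496 for Psmb8 (5.83%). For Psmb6 the share was 2.67%, with the pseudogene Psmb6-ps2.

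Assembly chaperones spanned a range of levels that depended on length. Of the chaperones of the core, Psmg2 was the highest, at 252, 254, 256 and 231 TPM in replicates 1 to 4, and Psmg3 the lowest, at 53.4, 58.4, 49.9 and 50.3 TPM. Psmg1, which pairs with Psmg2 on the alpha ring, averaged 167 ± 10.4 TPM and Psmg4, the partner of Psmg3, 166 ± 5.99 TPM (SD, n = 4). The 4 genes lay within 4.68-fold by exonic length and 1.498-fold by principal transcript, where Psmg4 was the lowest at 113 ± 3.86 TPM, Psmg3 came to 118 ± 8.69 TPM and Psmg2 stayed the highest at 169 ± 7.58 TPM. The chaperones of the 19S base were each below every detected core and cap subunit other than Psmb9 by exonic length. Psmd10, also known as gankyrin, stood at 62.1, 68.2, 67.0 and 56.8 TPM, and Psmd9 was the lowest at 20.3, 19.4, 21.7 and 19.2 TPM, with Psmd5 at 33.8 ± 0.922 TPM. By principal transcript these 3 lay within 1.18-fold, with Psmd5 the lowest at 37.8 ± 0.977 TPM, Psmd9 at 38.3 ± 2.11 TPM and Psmd10 at 44.5 ± 3.59 TPM. Psmc3ip, whose product works in meiotic recombination, stood at 48.8, 43.5, 46.4 and 47.9 TPM; its exons overlap those of Mlx on the opposite strand over 21.2% of their length.

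The 4 libraries gave like levels of these genes, with a small shift in 1 of them. In edgeR's quasi-likelihood fit over 12285 genes, 28 genes (0.228%) varied more between the libraries than genes of like abundance at an adjusted p of 0.05, and 0 of the 48 members tested did. At an unadjusted p of 0.05 edgeR called 5.42% of all genes and 1 member, Psme2. Its adjusted p in the edgeR test was 0.85. DESeq2 marked 68 of 12285 genes as dispersion outliers, with 0 members among them. With shares this small over all genes, 0 calls among 48 members do not set the members apart. The largest SDs of log2 CPM were those of Psme2b (0.26), Psmd10 (0.14) and Psme2 (0.13). The median SD of the members was 0.07, against 0.09 over all tested genes at 1 TPM or more and 0.07 over tested protein-coding genes at 20 TPM or more.

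In replicate 4 most members were at their lowest. On the log2 CPM scale of the edgeR fit this held for 40 of 48 members (83.3%), against 29.7% of all tested genes at 1 TPM or more and 35.4% of tested protein-coding genes at 20 TPM or more. It held for 17 of 17 detected core subunits and 14 of 17 cap subunits. The shift was small: the median deviation of the members from their own mean in replicate 4 was -0.09 log2 units (-0.12 for the core, -0.07 for the cap), against 0.0025 for all tested genes. On the TPM scale fewer members were lowest in replicate 4, 32 of 48 (66.7%), against 20.8% of all genes at 1 TPM or more, with 16 of 17 core and 11 of 17 cap subunits; the members' median deviation there was -0.06 log2 units, against 0.04 for all genes. Not all members followed it, since Psmf1, Psme4 and Psme2b were at their highest in replicate 4 on both scales. Without replicate 4 the members' median SD was 0.0388, against 0.0779 for all tested genes and 0.0537 for the abundant protein-coding ones. Leaving it out was chosen after most members were seen to be lowest there. That choice itself favours a smaller SD for the members, so these values do not set them apart. In the same library the summed B cell markers (2.07 TPM) and the summed macrophage and dendritic cell markers (2.14 TPM) were also lowest, and Cd8a was lowest at 0.225 TPM. The sum of the T cell markers was highest there (5300.2 TPM), while on the log2 CPM scale 3 of these 7 genes, and 0 of 8 genes of class I peptide supply, were at their lowest; the part of these in the shift was not tested. In bulk RNA, fewer cells of a type and less RNA per cell cannot be told apart.

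**Figure D4:**
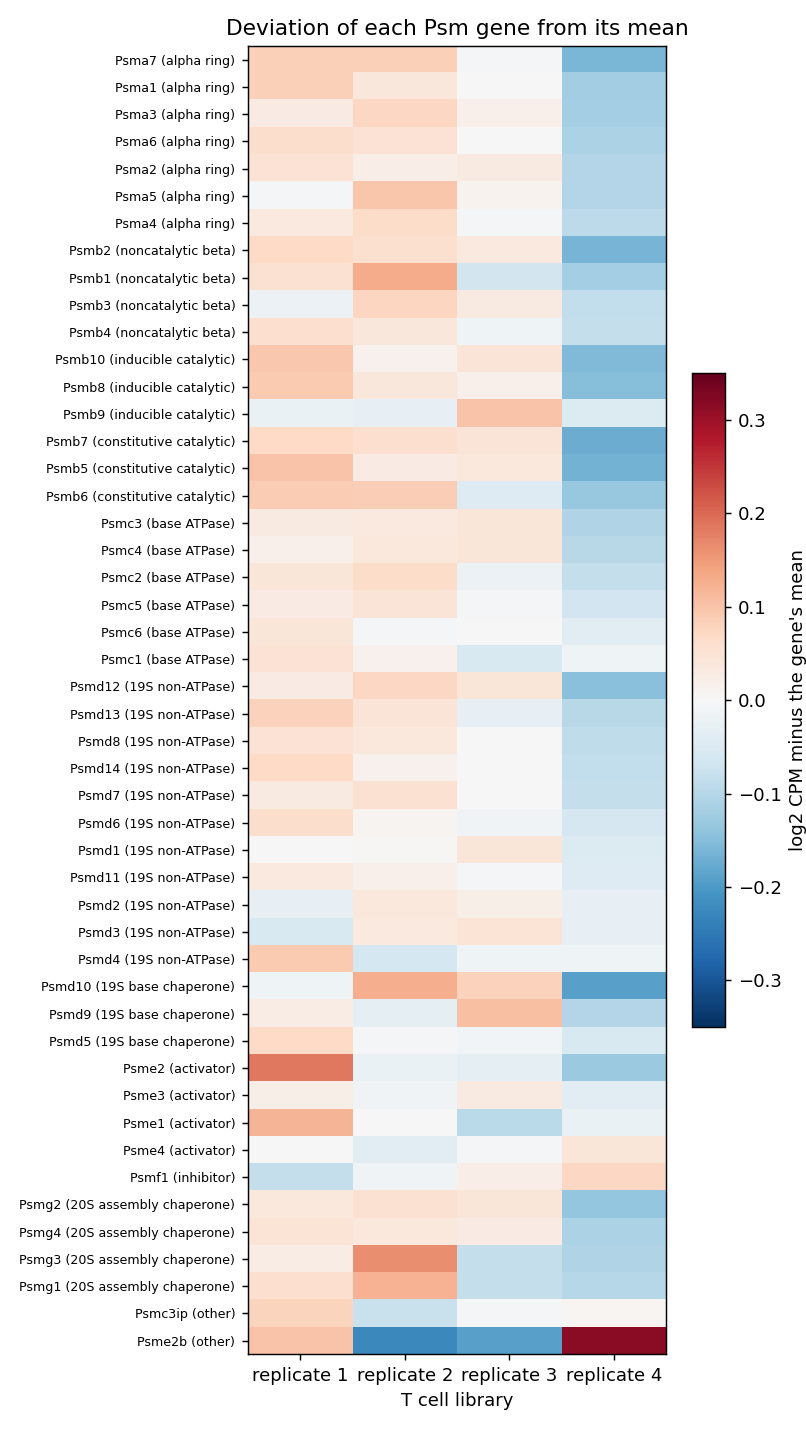
Deviation of each detected member in each library from its own mean over the 4 libraries, in log2 CPM, with genes grouped by role and colour for the size. Replicate 4 is the lowest of the 4 in 40 of 48 genes, with a median of -0.09, while Psme4, Psmf1 and Psme2b are highest there.

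Factors that load and serve the proteasome were all present. All 16 genes of proteasome-associated factors were at 1 TPM or more in every library, against 45.2% of all protein-coding genes. The median of their mean levels was 89.0 TPM. By the edgeR test of spread, 0 of 16 were called, against 0.228% of all genes tested, and 0 were at an unadjusted p below 0.05, against 5.42%. Pomp, which brings the beta subunits into the nascent core, averaged 95.3 ± 4.77 TPM (SD, n = 4), the ubiquitin receptor Adrm1 104 ± 6.42 TPM, the small cap subunit Sem1 82.6 ± 5.67 TPM, and the deubiquitinases of the cap Usp14 68.1 ± 0.647 TPM and Uchl5 102 ± 2.83 TPM. Akirin2, which carries proteasomes into the nucleus, averaged 45.5 ± 1.88 TPM, and Ecpas, which binds core and cap together, 65.8 ± 4.03 TPM. The shuttle proteins Rad23b and Ubqln1 averaged 189.6 ± 5.32 TPM and 235 ± 8.71 TPM. The order of these genes depends on length: by principal transcript the means were 215 TPM for Pomp, 205 TPM for Adrm1, 194 TPM for Rad23b and 166 TPM for Ubqln1.

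Upstream of the proteasome, the transcription factor Nfe2l1, which raises subunit genes when proteasome activity is short, averaged 119 ± 4.62 TPM (SD, n = 4), and Ddi2, the protease that cuts it into its active form, 43.8 ± 2.00 TPM. The deglycosylase Ngly1, which also acts on Nfe2l1, averaged 15.5 ± 0.521 TPM and the related factor Nfe2l2 34.5 ± 1.57 TPM. The unfoldase Vcp averaged 359 ± 9.68 TPM, with its cofactors Nploc4 at 145 ± 7.58 TPM, Nsfl1c at 116 ± 2.71 TPM and Ufd1 at 44.7 ± 2.25 TPM. Of the ubiquitin genes and activating enzymes, Ubb averaged 524 ± 30.8 TPM, Uba1 741 ± 37.3 TPM and Uba6 36.0 ± 2.28 TPM; Rps27a, which encodes ubiquitin fused to a ribosomal protein, averaged 1016 ± 112 TPM. All genes of these 3 lists were detected in every library, against 45.2% of all protein-coding genes. For spread, edgeR called 0 of them, against 0.228% of all genes tested. At an unadjusted p below 0.05 in the edgeR test were 2 of the 6 ubiquitin genes, against 5.42% of all genes.

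Genes that carry proteasome products to class I molecules were expressed along with the inducible subunits. The peptide transporter genes Tap1 and Tap2 averaged 83.8 ± 4.76 TPM and 92.2 ± 8.95 TPM (SD, n = 4), the loading factor Tapbp 155 ± 12.6 TPM and the trimming peptidase Erap1 108 ± 5.20 TPM. The class I light chain B2m averaged 2053 ± 108 TPM, the heavy chains H2-K1 1331 ± 54.5 TPM and H2-D1 1013 ± 44.6 TPM, and the class I regulator Nlrc5 41.3 ± 6.09 TPM. Ifng itself, which encodes the cytokine best known for inducing Psmb8, Psmb9 and Psmb10, was at 0, 0.0522, 0.410 and 0.0575 TPM in replicates 1 to 4 and so below 1 TPM in all of them. Its receptor chains Ifngr1 and Ifngr2 averaged 28.2 ± 1.63 TPM and 23.1 ± 2.17 TPM, the kinases Jak1 and Jak2 189.6 ± 8.44 TPM and 125 ± 7.84 TPM, and the factors Irf1 and Irf8 17.4 ± 1.34 TPM and 62.3 ± 7.02 TPM. The edgeR test called 0 of the 8 class I genes and 0 of the 7 interferon genes tested for spread after adjustment, against 0.228% of all genes, and 1 gene of each list was at an unadjusted p below 0.05, against 5.42%.

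Promoter windows from RefSeq (GRCm38.p6; 250 bases before to 50 after a start site) were found for 42 of the 50 members, in 45 windows. Short letter patterns of 3 elements were counted in them on both strands: TGANNNNGC for the core of the antioxidant response element, which Nfe2l1 and Nfe2l2 bind; TTCNNNGAA for the gamma-activated site of interferon-responsive genes; and GAAANNGAA for an interferon response element. TGANNNNGC was in 26 of 45 member windows (57.8%), against 41.3% of 32851 promoters, and in the windows of 11 of 15 core and 6 of 14 cap genes. The core genes counted here were not limited to detected ones, and the undetected Psmb11 was among those with the pattern. Psmb8 was also among them, with its match after the start site. TTCNNNGAA was in 3 windows (Psmb8, Psmd2 and Psmg1), or 6.67% against 8.30%, and GAAANNGAA in 7, or 15.6% against 8.56%. The window of Psmb10 held none of the 3 patterns, and Psmb7 had no window among them. Matches of different patterns may overlap each other. The start sites of Psmb9 and Tap1 point away from each other with 225 bases between them. A stretch of 29 bases is shown for each detected catalytic gene with a match before the RefSeq start site, 5′ to 3′ on the gene's strand with the match in capitals: chr17:34198088-34198116, plus strand, bases -107 to -79 from the start of Psmb8 (TTCNNNGAA); chr14:54618024-54618052, minus strand, -57 to -29 of Psmb5 (TGANNNNGC); chr11:70525328-70525356, plus strand, -29 to -1 of Psmb6 (TGANNNNGC); and chr17:34187372-34187400, minus strand, -70 to -42 of Psmb9 (TGANNNNGC).
Psmb8: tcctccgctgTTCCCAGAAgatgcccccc
Psmb5: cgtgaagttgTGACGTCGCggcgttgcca
Psmb6: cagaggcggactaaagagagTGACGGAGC
Psmb9: ccttgcgcgaTGATGGGGCggggcctcag
The stretches of Psmb8 and Psmb9 lie in exons of longer GENCODE M21 transcripts of the same genes, and those of Psmb5 and Psmb6 in none. A match of letters is a description of the window and was set against no binding data.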

How the data were processed

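RNA was measured in 4 libraries that form 1 group. Whole-number counts of read pairs per gene were deposited; per the file headers they were made with featureCounts 1.4.6-p4 over the exons of each gene of GENCODE M13, on STAR alignments, requiring both mates and using strand setting 2. The STAR version was not given in these sources. No option for multi-mapping reads is recorded there. The build is mm10, per the labels. Totals ran from 46192242 to 63313389. Symbols came from GENCODE M21 (50376 of 50600 identifiers matched, 224 did not). TPM was computed from the deposited counts and exonic lengths, with APPRIS principal transcript lengths (GENCODE M21) as an alternative added after the lengths were seen. Within-library ratios were tested by exact sign-flip permutation (Python 3.11.15, 9 tests, Benjamini-Hochberg). Spread between libraries was tested by edgeR 4.0.16 in R 4.3.3 (TMM, filterByExpr, intercept only, robust quasi-likelihood, residual spread on 3 degrees of freedom against the trended prior with 13.9, Benjamini-Hochberg at 0.05). The spread test was also run on simulated data, whose outcome is not reported here. The spread added there was larger than that of any member, so it does not show what spread among the members the test could find. DESeq2 1.42.0 served for other size factors and for dispersion outliers. Other alternatives were no length, 200 bases less, other detection limits, another filter, another prior, each library left out and, added after the values were seen, TPM in place of CPM for the order of libraries.

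The members and gene lists were chosen with earlier results of these data known. Named in full were the catalytic and activator genes, members under 1 TPM, the highest and lowest member of each role, and the 3 members with the largest SD; other members are given by mean or range. Where a gene had 0 counts, its upper limit was set at 3 counts per library; this limit and the 95% Wilson intervals cover counting error only. Shared sequence was sought as 50-base windows of principal transcripts in the transcripts of other genes. Some genes of the pathway lists are counted in their list and not reported here by name.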

Additional observations from a re-analysis of the deposited data

Results flagged for a closer look

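Each of the 48 detected genes and the 9 within-library ratios was examined for a library that stands apart from the other 3, by the gap to its nearest neighbour over the whole range, against Dixon's critical value at 95%. Of 57 sets of 4 values, 5 had such a library. The chance rate of the rule, about 1 in 20, is for independent sets, while these all come from the same 4 libraries. The share over all genes was not computed, so the count is not read as a result about the members. In replicate 4, Psmb2, a core subunit without an active site, stood apart at 403 TPM, below the other libraries. The trypsin-like subunit Psmb7 also stood apart in replicate 4, at 160.4 TPM. So did the core chaperones Psmg2, at 231 TPM, and Psmg4, at 157 TPM, both lowest there. In replicate 3, the base scaffold Psmd1 stood apart at 154 TPM, above the other libraries.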

How the results depend on the processing

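Of 96 values recomputed under other settings, 4 reversed and 3 counts moved by over 1.5 times. The ratio tests cannot reach the threshold with 4 libraries, so staying on 1 side of it says nothing about stability. Psmb10 over Psmb7 minus Psmb8 over Psmb5 kept its direction while moving to -2.03 with principal transcript lengths and to -2.71 with raw counts. With raw counts in place of TPM, Psmb8 over Psmb5 turned to a log2 ratio of 0.65, since the exonic length of Psmb8 is the longer. With principal transcript lengths, Psme1 over Psme3 turned to 0.29 and Psme2 over Psme3 to 0.17. With 200 bases taken off each exonic length, the difference of Psmb10 over Psmb7 from Psmb8 over Psmb5 turned to 0.30. The genes called for spread by edgeR numbered 28, against 15 with a prior estimated without robust weights, 68 as dispersion outliers in DESeq2, and 14 to 27 with 1 library left out, the lowest without replicate 3; the cause was not tested. Members called were 0 under all of these; at an unadjusted p below 0.05 they numbered 0 to 3 in the edgeR fits.

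No paired analysis was possible because the 4 libraries form 1 group. The exact test cannot go below a p of 0.125 with 4 libraries or 0.25 with 3. The choice of length limits comparisons between genes, as the ratios above show, and near-identical copies limit Psma5, Psmb3, Psmb5, Psme2 and Psme2b. Depth limits Psma8 and Psmb11, which had at most 2 counts in a library.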
